A study of Mus musculus with 12 samples.

Results

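A set of 10 genes that build or release the granules of platelets was followed in haematopoietic stem cells (HSCs) of mice with and without an intact Runx1 gene. They were chosen by gene symbol, as rows named Rab27b, Rab27a, Slc35d3, Nbeal2, Vps33b, Plek, Bloc1s6, Lyst, Rab32 and Rab31 among the 35869 genes of the count table, and all 10 had a row. RNA was sequenced from bone marrow HSCs that had been sorted by flow cytometry into a CD41-positive fraction (CD41pos) and a CD41-negative fraction (CD41neg). The CD41 antigen is the product of Itga2b, an integrin chain carried by megakaryocytes, platelets and some stem cells.

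All mice had both Runx1 alleles floxed (RUNX1f/f) and all were given poly(I:C), an RNA mimic that switches on interferon, in 4 injections, with collection 4 weeks after injection. Knockout mice (KO) were MxCre1+/-,RUNX1f/f and controls (called WT) were MxCre1-/-,RUNX1f/f, so the controls also carried the floxed alleles and the interferon stimulus but no Cre. The Mx promoter that drives this Cre answers to interferon in many cell types, so deletion need not be limited to blood cells. Age is not given in the labels used here. The 4 groups are CD41pos WT (libraries 1, 3 and 4), CD41neg WT (2, 3 and 4), CD41pos KO (1, 2 and 3) and CD41neg KO (1, 2 and 3), with 3 libraries each. Nothing in the labels says that each library is 1 animal, and the p-values therefore refer to the spread among libraries, whatever its source, technical handling included.

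Platelets carry alpha granules, filled with adhesive proteins and growth factors, and dense granules, filled with small molecules such as ADP and serotonin. Both are assembled in megakaryocytes from the Golgi and from endosomes, by protein complexes that also make other lysosome-related organelles such as melanosomes. Several of these complexes were found through inherited diseases with few or empty granules, and platelet granule defects are also a known feature of people with inherited RUNX1 mutations. On activation, granules dock at the plasma membrane through Rab27 and fuse through SNARE proteins.

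Total gene counts were 44108035 to 58946457 per library. Levels are given below as CPM, counts scaled to a common library size by the TMM method, which compare a gene between libraries but not genes with each other. Runx1 itself measured 65.7 to 159.4 CPM in WT and 157.2 to 382.2 CPM in KO libraries, a gene total that also counts exons left after recombination and so cannot check the deletion. All 10 stem cell markers examined (among them Kit, Procr, Mecom and Hlf) were at 1 CPM or more in every library. In WT, 4 libraries numbered up to 6 in the labels (1 and 4 of CD41pos, 2 and 4 of CD41neg) stood apart, with 18.6 to 27.7 CPM of the immediate early gene Nr4a1 against 237 to 396 CPM in the other 8 libraries. Calls that change without these 4 libraries are given with both values below, where each WT group then rests on 1 library, assumed to vary like the KO groups. For CD41pos that library is CD41pos WT 3, whose counts differed most from those of the other libraries of its group. Sex-linked transcripts differed with genotype: Xist was at 113.4 to 338.8 CPM in all 6 WT libraries and both KO 2 libraries, and at 1.003 CPM or below in the other 4 KO libraries, where the Y-linked Ddx3y was at 83.4 to 103.5 CPM. Of the WT libraries 4 held both, with Ddx3y at 11.2 to 38.9 CPM, and CD41pos WT 4 and CD41neg WT 4 differed in it (22.4 and 0 CPM). With the Y-linked level as a covariate, chosen after seeing the data, the members' calls were the same in all comparisons.

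The 10 genes were expressed at very different levels. On the deposited TPM scale, which is per transcript length and so allows genes to be compared, the highest in CD41pos WT was Rab32 (143 ± 34.4 TPM, SD, n = 3). Plek (101 ± 56.0 TPM) and Rab31 (99.0 ± 43.2 TPM) came next, with library values that overlapped those of Rab32 or each other. Bloc1s6, Vps33b and Nbeal2 had mean levels of 45.4, 37.7 and 34.5 TPM in CD41pos WT and overlapped along that order. Rab27a averaged 17.5 TPM, and Slc35d3 (7.37 TPM), Rab27b (5.27 TPM) and Lyst (1.00 TPM) were the lowest. In CD41pos KO the order was led by Plek at 335 ± 67.9 TPM, above Rab32 at 265 ± 8.02 TPM in every library. In CD41neg WT Slc35d3 was the lowest of the 10, at 0.367 ± 0.289 TPM, and Plek stood sixth with 14.6 ± 7.85 TPM.

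In the GENCODE vM21 annotation of GRCm38 (mm10) all 10 are protein-coding genes, given here as spans of the whole gene. Plek lies on chromosome 11, 16971206 to 17052381, minus strand, and Slc35d3 on chromosome 10, 19847916 to 19851459, minus strand. Rab32 lies on chromosome 10, 10545002 to 10558265, minus strand, and Rab31 on chromosome 17, 65651729 to 65772752, minus strand. Rab27a lies on chromosome 9, 73044854 to 73097629, plus strand, and Nbeal2 on chromosome 9, 110624789 to 110654161, minus strand. Vps33b lies on chromosome 7, 80269649 to 80291754, plus strand. Bloc1s6 lies on chromosome 2, 122738503 to 122749475, plus strand, and Lyst on chromosome 13, 13590397 to 13778803, plus strand. The library kit does not mark the strand, so reads from overlapping exons of 2 genes cannot be told apart. Exons of Plek share 199 bases (4.44% of its exon bases) with Cnrip1 on the other strand, a gene at 5.13 to 23.7 CPM here. Rab27a shares 149 exon bases with Gm27186 and Nbeal2 shares 22 with Mir8107, and the other 7 genes share none.

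Promoter windows, from 250 bases before to 50 bases after a gene's start in RefSeq (GRCm38.p6), were read for 7 of the 10 genes. Those of Plek (chr11:17008669-17008968, minus strand) and Slc35d3 (chr10:19851410-19851709, minus strand) are shown because these 2 genes had the largest changes with genotype. The Plek window lies inside the GENCODE span of the gene. It is away from the span's 5′ end at 17052381, where no window was read. Those of Rab27a (chr9:73044560-73044859, plus strand, the first of its 2 RefSeq starts) and Rab31 (chr17:65772703-65773002, minus strand) are shown because they hold the letters bound by RUNX proteins, TGTGGT. Capitals mark that motif, or its reverse complement ACCACA, and all sequences run 5′ to 3′ along the gene's strand.

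Plek: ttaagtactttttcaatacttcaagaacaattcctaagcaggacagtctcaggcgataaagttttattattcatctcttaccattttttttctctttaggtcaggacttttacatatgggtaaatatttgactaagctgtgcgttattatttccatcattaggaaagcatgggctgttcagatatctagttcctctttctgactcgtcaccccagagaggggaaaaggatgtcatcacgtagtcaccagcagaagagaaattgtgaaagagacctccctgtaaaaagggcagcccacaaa
Slc35d3: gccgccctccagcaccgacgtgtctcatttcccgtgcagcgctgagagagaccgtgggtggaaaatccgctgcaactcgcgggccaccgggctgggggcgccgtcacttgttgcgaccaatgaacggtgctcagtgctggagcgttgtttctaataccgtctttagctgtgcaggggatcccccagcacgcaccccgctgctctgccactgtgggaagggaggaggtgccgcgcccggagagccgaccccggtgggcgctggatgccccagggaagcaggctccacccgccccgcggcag
Rab27a: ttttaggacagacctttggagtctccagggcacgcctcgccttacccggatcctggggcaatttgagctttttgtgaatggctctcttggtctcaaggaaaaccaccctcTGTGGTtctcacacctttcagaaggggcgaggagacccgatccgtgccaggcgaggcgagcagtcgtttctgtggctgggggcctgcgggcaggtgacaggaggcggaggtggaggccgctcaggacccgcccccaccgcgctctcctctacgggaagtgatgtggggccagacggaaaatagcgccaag
Rab31: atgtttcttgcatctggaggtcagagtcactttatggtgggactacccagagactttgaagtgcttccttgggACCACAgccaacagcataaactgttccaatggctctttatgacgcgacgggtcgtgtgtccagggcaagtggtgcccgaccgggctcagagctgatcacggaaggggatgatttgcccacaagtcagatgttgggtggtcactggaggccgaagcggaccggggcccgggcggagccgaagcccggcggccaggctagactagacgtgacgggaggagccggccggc

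TGTGGT or its reverse complement was found once in each of these windows of Rab27a (140 bases before the start) and Rab31 (177 bases before it), and in none of the windows of Plek, Slc35d3, Rab32, Lyst and Nbeal2. It occurs in 16.8% of all 32851 promoter windows of the table. The GATA motifs AGATAA and TGATAA are in 11.2% and 9.05% of all windows, and the ETS motifs CCGGAA and CAGGAA in 14.9% and 30.6%, counted on both strands. Among the genes read, only the window of Rab32 held any of these 4, namely TGATAA and CCGGAA once each, and no 2 matches overlapped. The window of Plek, at its RefSeq start inside the gene's span, had a GC content of 39.0%. That of Slc35d3 had 67.7%, and the median over all windows was 52.7%. A match is a description of letters, and the absence of one says only that they are not in this window.

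The CD41 gate was compared first in controls. Plek, Rab27b, Slc35d3 and Rab32 rose in CD41pos over CD41neg WT cells, by 7.07-fold, 5.56-fold, 20.1-fold and 1.85-fold in the fitted model. The other 6 genes did not pass the test, and none of the 10 was called lower. Thus 4 of 10 members were called higher, where 5.59% of all 19395 genes tested were called (2.72% higher and 2.87% lower). The 10 were chosen with earlier results of these data known, so this count and those below are descriptions. The median log2 fold change was 0.84 over the 10 genes and 0.01 over all genes tested. Changes are edgeR log2 fold changes ± SE with Benjamini-Hochberg adjusted p-values, and called means an adjusted p below 0.05.

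In KO cells the same gate comparison called Plek, Rab27b, Slc35d3 and Rab32 higher in CD41pos, by 3.65-fold, 4.16-fold, 16.0-fold and 2.57-fold. None of the other 6 passed, and none of the 10 was called lower. Over all genes 2.79% were called in this comparison, 1.56% higher and 1.23% lower, and the medians were 0.58 for the 10 genes and -0.02 for all genes. In KO the same replicate numbers appear in the titles of CD41pos and CD41neg libraries, and the fit above did not use them. With that number as a block 156 genes were called in place of 541. In that blocked fit Plek was at 1.86 (adjusted p = 0.136), while Rab27b (0.0285), Slc35d3 (0.0361) and Rab32 (0.0426) had adjusted p-values below 0.05.

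Genotype was then compared within each gate. In CD41pos HSCs 6 of the 10 genes rose in KO, namely Plek (3.05-fold), Slc35d3 (2.59-fold), Rab27b (1.86-fold), Lyst (1.85-fold), Vps33b (1.71-fold) and Rab32 (1.64-fold). Rab27a, Rab31, Bloc1s6 and Nbeal2 did not pass. Of all genes 17.1% were called in this comparison, 9.79% higher and 7.27% lower, and on log2(TPM + 1) the split was 1674 higher and 763 lower in place of 1899 and 1410. The median log2 fold change was 0.74 over the 10 genes and -0.08 over all genes. The calls depended on which KO library was left out: 5 remained without CD41pos KO 1 and none of the 6 without CD41pos KO 2, with changes of 0.69 to 1.43 and adjusted p-values of 0.0612 to 0.156, and 3 remained without CD41pos KO 3, where Vps33b, Lyst and Slc35d3 had adjusted p-values of 0.0586, 0.0586 and 0.0852.

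In CD41neg HSCs 4 of the 10 genes rose in KO, namely Plek (5.92-fold), Slc35d3 (3.25-fold), Rab27b (2.49-fold) and Lyst (2.19-fold). The other 6 did not pass and none fell, against 7.82% of all genes called, 3.85% higher and 3.97% lower. The median was 0.58 for the 10 genes and -0.03 for all genes. All 4 comparisons draw on the same 12 libraries, each group serving in 2 of them, so they are not independent of each other.

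**Figure D1:**
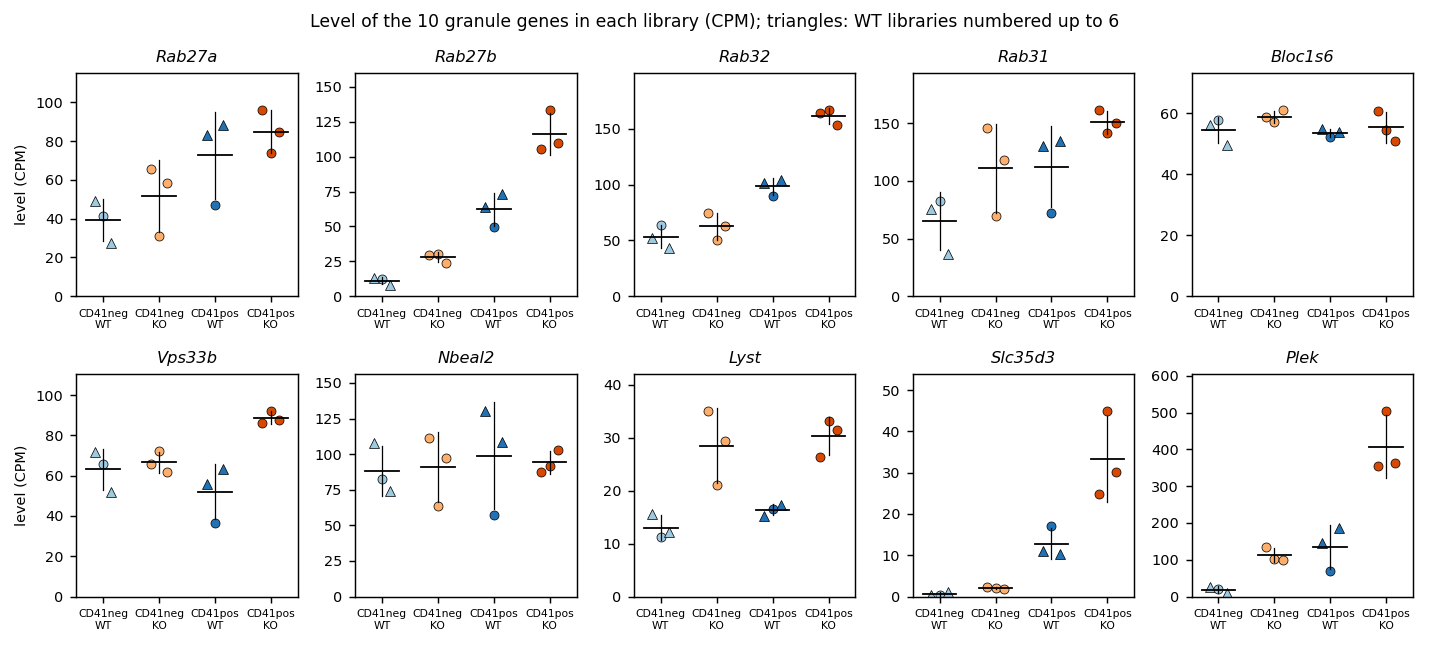
Level of each of the 10 genes in every library (CPM, linear axis from 0), by gate and genotype, with the mean and SD (n = 3) as lines; triangles are the 4 WT libraries numbered up to 6. Plek, Rab27b and Slc35d3 stepped up with both the gate and the genotype, whereas Bloc1s6 lay between 49.6 and 60.9 CPM in all 12 libraries.

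**Figure D2:**
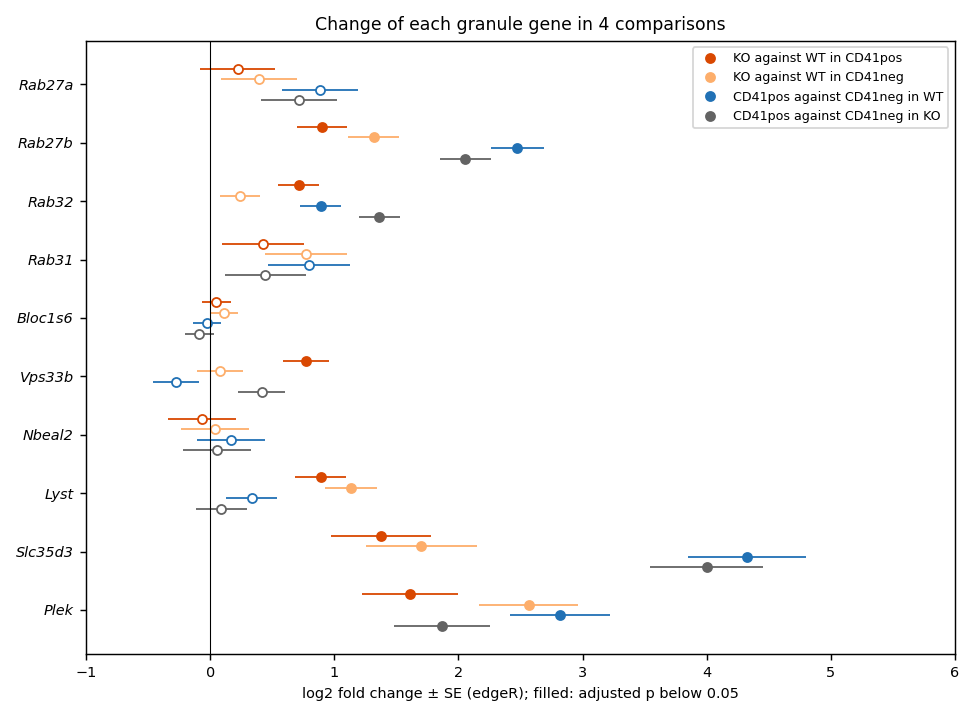
Log2 fold change ± SE of each gene in the 4 comparisons, with filled points for an adjusted p below 0.05 (edgeR). The gate changes of Slc35d3 (4.33 in WT and 4.00 in KO) are the highest values plotted, and 18 of the 40 points are filled.

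Among the Rab GTPases, Rab27b, the main Rab27 of platelets, docks dense granules at the plasma membrane and is encoded on chromosome 18. It measured 63.7, 49.6 and 73.2 CPM in CD41pos WT 1, 3 and 4, and 12.8, 12.6 and 8.12 CPM in CD41neg WT 2, 3 and 4. In KO 1, 2 and 3 it measured 105.3, 133.2 and 109.5 CPM in CD41pos and 29.7, 30.1 and 23.8 CPM in CD41neg cells. The 4 groups did not overlap, in the order CD41neg WT, CD41neg KO, CD41pos WT, CD41pos KO. The gate change was 2.47 ± 0.21 in WT (adjusted p = 0.00014) and 2.06 ± 0.21 in KO (adjusted p = 0.000338). The genotype change was 0.90 ± 0.20 in CD41pos (adjusted p = 0.0128) and 1.32 ± 0.21 in CD41neg cells (adjusted p = 0.00528). Without the 4 WT libraries the genotype changes were 1.31 in CD41pos and 1.15 in CD41neg cells. The only CD41pos WT library left there, CD41pos WT 3, was the lowest of its group. On log2(TPM + 1) the WT gate change was 1.64.

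Rab27a, its close relative, serves lytic granules of lymphocytes and melanosomes as well as platelets. Its level was 82.9, 46.9 and 88.1 CPM in CD41pos WT and 49.1, 41.5 and 27.4 CPM in CD41neg WT, with library numbers in the order above. In KO it was 95.8, 73.7 and 84.6 CPM in CD41pos and 65.6, 30.9 and 58.6 CPM in CD41neg cells. The KO gates did not overlap, the other groups that were compared did, and CD41pos WT 3 and CD41neg KO 2 were low within their groups. No comparison of Rab27a passed, at 0.89 ± 0.31 and 0.71 ± 0.31 for the gate in WT and KO (adjusted p = 0.112 and 0.321) and 0.22 ± 0.30 and 0.39 ± 0.30 for KO in CD41pos and CD41neg cells (adjusted p = 0.636 and 0.434). Without CD41pos WT 3 the WT gate change was 1.12 (adjusted p = 0.0457), and without the 4 WT libraries it was 0.11 (adjusted p = 0.885).

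Rab32, which with Rab38 steers cargo to melanosomes and dense granules, followed the gate in both genotypes. It measured 101.1, 89.5 and 104.5 CPM in CD41pos WT and 52.4, 63.8 and 43.3 CPM in CD41neg WT. In KO it measured 163.9, 166.4 and 153.2 CPM in CD41pos and 74.7, 50.8 and 62.6 CPM in CD41neg cells. The CD41neg groups overlapped, and both CD41pos groups lay apart from each other and above them. The gate change was 0.89 ± 0.17 in WT (adjusted p = 0.0103) and 1.36 ± 0.17 in KO (adjusted p = 0.00113). The WT gate change was 0.42 ± 0.23 (adjusted p = 0.221) without the 4 WT libraries, and did not pass on either TPM scale (adjusted p = 0.0759 and 0.0814) or in a fit of the WT groups alone (adjusted p = 0.0722). KO raised Rab32 in CD41pos cells by 0.71 ± 0.16 (adjusted p = 0.0147), and the value in CD41neg cells was 0.24 ± 0.16 (adjusted p = 0.377), or -0.03 without the 4 WT libraries.

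Rab31, a GTPase of the Rab5 branch that moves cargo between endosomes and the Golgi, varied widely between libraries of a group. It measured 130.3, 72.1 and 134.7 CPM in CD41pos WT, 76.0, 82.6 and 36.2 CPM in CD41neg WT, 161.2, 141.4 and 150.1 CPM in CD41pos KO and 145.7, 69.5 and 117.8 CPM in CD41neg KO. Every CD41pos KO library lay above every WT library of both gates, and the other pairs of groups overlapped. The change in KO was 0.43 ± 0.33 in CD41pos (adjusted p = 0.374) and 0.77 ± 0.33 in CD41neg cells (adjusted p = 0.16). Without the 4 WT libraries, where CD41pos WT 3 alone stands for its group, the CD41pos change was 1.15 ± 0.35 (adjusted p = 0.0348). The gate changes were 0.79 ± 0.33 in WT and 0.44 ± 0.33 in KO (adjusted p = 0.185 and 0.68), and the WT value was -0.26 without the 4 WT libraries (adjusted p = 0.685).

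Bloc1s6 encodes pallidin, a subunit of BLOC-1, the complex that sorts cargo from endosomes to dense granules and melanosomes. It was the flattest of the 10 genes, at 52.1 to 54.7 CPM in CD41pos WT, 49.6 to 57.9 CPM in CD41neg WT, 50.8 to 60.7 CPM in CD41pos KO and 57.0 to 60.9 CPM in CD41neg KO. All groups being compared overlapped. Its 4 changes lay between -0.09 and 0.11 with an SE of 0.12 each, and none passed (adjusted p = 0.574 to 0.929).

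Vps33b, a Sec1/Munc18 protein that works with Vipas39 in alpha-granule assembly, differed from the others in its order of groups. It measured 56.1, 36.8 and 63.3 CPM in CD41pos WT and 71.7, 65.9 and 51.9 CPM in CD41neg WT. In KO it measured 86.0, 92.3 and 87.9 CPM in CD41pos and 65.6, 72.4 and 61.8 CPM in CD41neg cells. All 3 CD41pos KO libraries were above all other 9 libraries, and the remaining groups overlapped. KO raised Vps33b in CD41pos cells by 0.77 ± 0.19 (adjusted p = 0.0179), and its value in CD41neg cells was 0.08 ± 0.19 (adjusted p = 0.826). The CD41pos call was lost on log2(TPM + 0.1), at 1.01 (adjusted p = 0.0552). Without the 4 WT libraries the change was 1.35, with the lowest library of its group, CD41pos WT 3, as the only CD41pos WT library left. The gate values were -0.28 ± 0.19 in WT and 0.41 ± 0.19 in KO (adjusted p = 0.418 and 0.353). Without the 4 WT libraries they were -0.91 and 0.43 and both were called, the WT one from 1 library a group.

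Nbeal2 encodes the BEACH-domain protein lost in gray platelet syndrome, in which platelets lack alpha granules. It measured 130.5, 57.4 and 108.8 CPM in CD41pos WT, 107.7, 82.7 and 74.4 CPM in CD41neg WT, 87.6, 91.8 and 103.1 CPM in CD41pos KO and 111.3, 63.4 and 97.5 CPM in CD41neg KO. All pairs of groups overlapped. Its changes lay between -0.07 and 0.16 with an SE of 0.27 each (adjusted p = 0.779 to 0.982). Without the 4 WT libraries the CD41pos change in KO was 0.80 ± 0.28 (adjusted p = 0.0566), with the lowest library of its group, CD41pos WT 3, as the only CD41pos WT library left, and the WT gate change was -0.59 (adjusted p = 0.237).

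Lyst encodes a second BEACH-domain protein, mutated in Chediak-Higashi syndrome and in beige mice, whose lysosomes are enlarged and whose platelets have few dense granules. Its level rose with KO in both gates, with 15.3, 16.5 and 17.3 CPM in CD41pos WT and 15.7, 11.2 and 12.2 CPM in CD41neg WT. In KO it measured 26.4, 33.2 and 31.4 CPM in CD41pos and 35.1, 21.1 and 29.4 CPM in CD41neg cells. Every KO library was above every WT library, and the gates overlapped in both genotypes. The change in KO was 0.89 ± 0.21 in CD41pos (adjusted p = 0.0151) and 1.13 ± 0.21 in CD41neg cells (adjusted p = 0.0102). The gate values were 0.33 ± 0.21 in WT and 0.09 ± 0.21 in KO (adjusted p = 0.385 and 0.948).

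Slc35d3, a membrane protein of the nucleotide-sugar transporter family whose loss in mice gives platelets without normal dense granules, had the steepest gate difference. It measured 11.1, 17.1 and 10.3 CPM in CD41pos WT and 0.370, 0.318 and 1.22 CPM in CD41neg WT, the last from 19, 14 and 59 reads. In KO it measured 24.8, 45.0 and 30.1 CPM in CD41pos and 2.33, 2.15 and 1.75 CPM in CD41neg cells. The 4 groups did not overlap, in the same order as for Rab27b. The gate change was 4.33 ± 0.48 in WT (adjusted p = 0.000758) and 4.00 ± 0.45 in KO (adjusted p = 0.000778). The WT gate change was 5.67 without the 4 WT libraries, 5.20 without CD41neg WT 4 and 2.63 on log2(TPM + 1), a scale that shrinks changes of low genes, where the KO gate change was 3.26. The change in KO was 1.38 ± 0.41 in CD41pos (adjusted p = 0.0377) and 1.70 ± 0.45 in CD41neg cells (adjusted p = 0.0401). The CD41pos change was 1.04 without the 4 WT libraries and did not pass (adjusted p = 0.0507). These 2 calls were the least stable of the 18, lost in 9 and 13 of 22 alternatives, with adjusted p-values up to 0.156 without CD41pos KO 2 and up to 0.105 with only the CD41neg groups. In CD41neg cells the change ranged from 0.83 on log2(TPM + 1) to 2.70 without the 4 WT libraries, and was 2.58 without CD41neg WT 4 alone.

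Plek encodes pleckstrin, the main protein kinase C substrate of platelets, which takes part in granule release. It measured 144.7, 69.0 and 187.0 CPM in CD41pos WT and 26.9, 20.8 and 9.08 CPM in CD41neg WT. In KO it measured 355.4, 505.1 and 362.6 CPM in CD41pos and 133.8, 102.2 and 99.5 CPM in CD41neg cells. CD41neg KO overlapped CD41pos WT, and the other pairs of groups lay apart. The gate change was 2.82 ± 0.40 in WT (adjusted p = 0.00274) and 1.87 ± 0.39 in KO (adjusted p = 0.0229). The KO gate call was lost without CD41pos KO 2 or 3 or any 1 CD41neg KO library, with adjusted p-values of 0.0562 to 0.115, and on log2(TPM + 1) (adjusted p = 0.114). The change in KO was 1.61 ± 0.38 in CD41pos (adjusted p = 0.0169) and 2.57 ± 0.40 in CD41neg cells (adjusted p = 0.00528). Without the 4 WT libraries the change in CD41pos cells was 2.65 and the WT gate change 1.67. The only CD41pos WT library left there, CD41pos WT 3, was the lowest of its group. On log2(TPM + 0.1) the CD41pos change of 1.92 did not pass (adjusted p = 0.0524).

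Whether the KO effect differed between gates was tested for every gene as an interaction. None of the 10 genes passed, and edgeR called none of all 19395 genes (0%), with 1093 at an unadjusted p below 0.05. DESeq2 called 72 genes, limma-trend on log2(TPM + 1) called 7, and none of the 10 was among the calls of either. The largest interactions among the 10 were -0.96 ± 0.53 for Plek (adjusted p = 0.894), whose KO change was smaller in CD41pos cells, and 0.69 ± 0.26 for Vps33b (unadjusted p = 0.0212, adjusted p = 0.847), whose KO change was larger there. An interaction that misses the threshold does not show that the effects were equal. Without the 4 WT libraries Vps33b (1.34, adjusted p = 0.00369) and Rab32 (0.96, adjusted p = 0.0432) passed, in a fit that called 3467 of all genes with 1 WT library a gate. In that fit the interaction of Plek turned to 0.22, and those of Rab27a, Rab27b, Rab31, Bloc1s6 and Nbeal2 also turned from below to above 0 without passing. For Vps33b, Rab32 and Plek the only CD41pos WT library of that fit, CD41pos WT 3, was the lowest of its group.

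**Figure D3:**
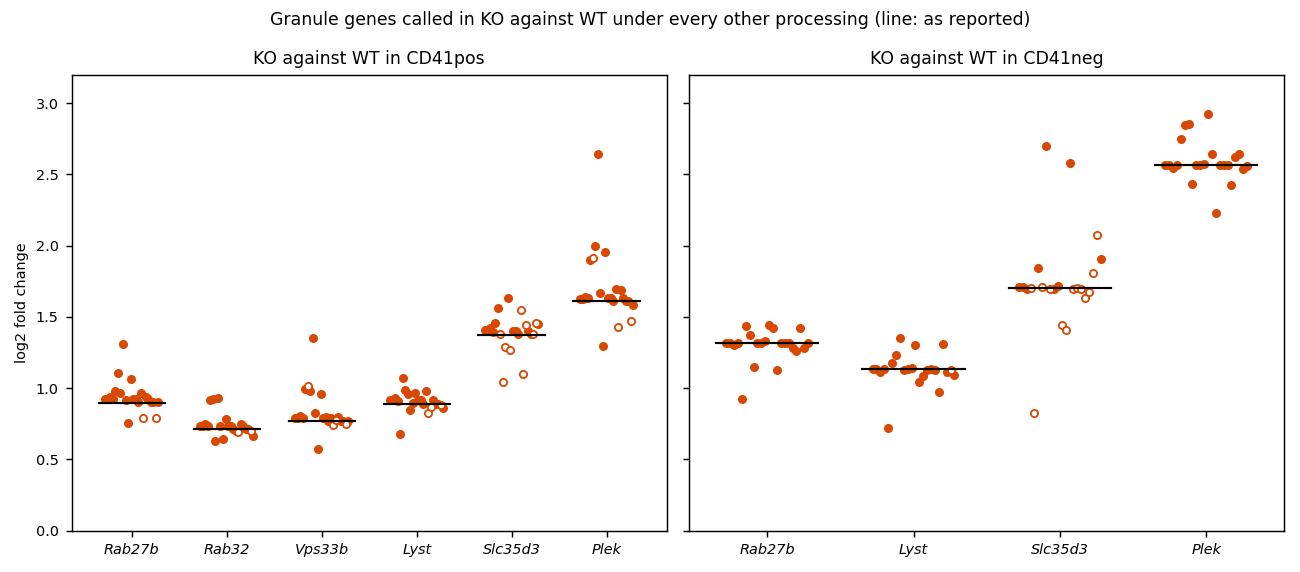
Log2 fold change of each gene called in KO against WT, as reported (line) and under 22 other ways of processing (points, filled for an adjusted p below 0.05). No point lies below 0, and Slc35d3 in CD41neg cells has the widest range, from 0.83 to 2.70.

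The other genes of granule assembly and release were taken from 7 lists of 92 genes, of which 90 passed the filter on low counts (Myrip did not, and Vamp7 had no matching row). In CD41pos cells KO raised 23 of the 90 and lowered 6, with a median of 0.18 against -0.08 over all genes. In CD41neg cells 7 were called higher and 0 lower, with a median of 0.13 against -0.03. The gate called 5 higher and 6 lower in WT and 6 higher and 4 lower in KO, with medians of 0.00 and 0.04. Of all genes, KO in CD41pos cells called 9.79% higher and 7.27% lower, and KO in CD41neg cells 3.85% and 3.97%. The gate called 2.72% higher and 2.87% lower in WT, and 1.56% and 1.23% in KO. These shares apply to each single list below as well. The lists were chosen with earlier results of these data known, so the counts are a description.

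Fusion machinery and Rab27 effectors had the most KO calls, with 11 of 26 tested genes higher and 1 lower in CD41pos cells. The shares of all genes were 9.79% and 7.27%. Snap23, the plasma-membrane SNARE of platelet secretion, rose from 92.3 to 208 CPM in CD41pos (1.17 ± 0.17, adjusted p = 0.00271) and from 108 to 179 CPM in CD41neg cells (0.73 ± 0.17, adjusted p = 0.0236). In CD41pos cells Nsf, the ATPase that takes SNARE bundles apart, rose by 0.66, the syntaxin gene Stx12 by 0.73 and Myo5a, a motor that carries Rab27a-bound organelles, by 0.80. The 1 gene of this list called lower, named here after its value was seen, was Vamp8, the main vesicle SNARE of platelets. It went from 316 to 189 CPM (-0.74 ± 0.18, adjusted p = 0.0164). Myo5a also rose in CD41neg cells (0.61, adjusted p = 0.0455). The gate moved other members of this list: Stx2 was lower in CD41pos cells of both genotypes, at -1.50 ± 0.23 in WT (adjusted p = 0.00412) and -1.21 ± 0.23 in KO (adjusted p = 0.0147). Stx7 was higher in CD41pos than in CD41neg KO cells (0.50).

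Among BLOC, HPS and AP-3 subunits, which sort cargo to dense granules, KO raised 3 of 17 and lowered 2 in CD41pos cells. It raised 1 in CD41neg cells. The shares of all genes were 9.79%, 7.27% and 3.85%. Hps5, a BLOC-2 subunit, rose in both gates (0.87 and 0.76, adjusted p = 0.0142 and 0.0401), and the AP-3 subunit gene Ap3m1 rose by 0.86 in CD41pos cells. Hps6, another BLOC-2 subunit, fell from 22.9 to 13.0 CPM (-0.82 ± 0.17, adjusted p = 0.0097) and Bloc1s2 from 64.2 to 41.8 CPM (-0.62 ± 0.16, adjusted p = 0.0215). Subunits of BLOC-1 went opposite ways with the gate. Dtnbp1, encoding dysbindin, was higher in CD41pos cells (0.79 ± 0.12 in WT and 0.69 ± 0.12 in KO, adjusted p = 0.00307 and 0.00664), and Bloc1s5, encoding muted, was lower (-0.69 ± 0.17 and -0.75 ± 0.17, adjusted p = 0.0331 and 0.0352).

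Among HOPS, CORVET and related tethering genes, Vps33a (0.76) and Vps39 (0.90) rose in CD41pos KO cells, and none of the 8 was called in the other comparisons. Vipas39, the partner of Vps33b, had KO changes of 0.33 ± 0.14 (adjusted p = 0.13) in the CD41pos fraction and 0.18 ± 0.14 (adjusted p = 0.457) in the CD41neg one. Among 7 BEACH-domain genes beside Nbeal2 and Lyst, Wdfy3, an autophagy adaptor, rose by 0.92 in CD41pos and 0.64 in CD41neg KO cells (adjusted p = 0.00367 and 0.0232). Wdr81 was lower in CD41pos cells in both genotypes (-0.77 and -0.87).

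Among 17 other Rab and prenylation genes, KO raised 3 and lowered 1 in CD41pos cells and raised 2 in CD41neg cells. Against these stood 9.79%, 7.27% and 3.85% of all genes. Chm, which encodes the escort protein that presents Rabs for prenylation, rose in both gates (1.21 and 0.99, adjusted p = 0.00785 and 0.029), as did Rab8b (0.92 and 0.81). Rab6a rose by 0.31 and Rab3a fell by 0.90 in CD41pos cells. With the gate, the recycling GTPase gene Rab11a was higher in CD41pos cells (0.73 in WT and 0.70 in KO) and Rab4a lower (-1.11 and -0.99). Rab22a (-0.64), the nearest relative of Rab31, and Rab3d (0.68) were called in WT only, a difference between genotypes that the interaction did not call.

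Among granule membrane proteins and transporters the KO calls went both ways in CD41pos cells. Cd63, a tetraspanin of granule membranes, fell from 288 to 153 CPM (-0.92 ± 0.24, adjusted p = 0.0236) and Slc17a9, which loads nucleotides into vesicles, from 25.6 to 16.0 CPM (-0.68 ± 0.19, adjusted p = 0.0318), while Lamp2 rose by 0.87 (adjusted p = 0.0482). In the protein kinase C and pleckstrin list, Prkca, encoding the alpha isoform, moved with both factors. It averaged 12.6 CPM in CD41neg WT, 25.9 CPM in CD41neg KO, 33.6 CPM in CD41pos WT and 71.2 CPM in CD41pos KO. Its KO changes were 1.09 ± 0.15 and 1.04 ± 0.15 (adjusted p = 0.0021 and 0.00362) and its gate changes 1.42 ± 0.15 and 1.46 ± 0.15 (adjusted p = 0.00054 and 0.000338). Prkcq, the theta isoform, rose in CD41pos KO cells (1.37 ± 0.27, adjusted p = 0.00804), and Rasgrp2, a Rap1 activator of platelets, was higher in CD41pos cells of WT (1.52) and KO (0.95).

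**Figure D4:**
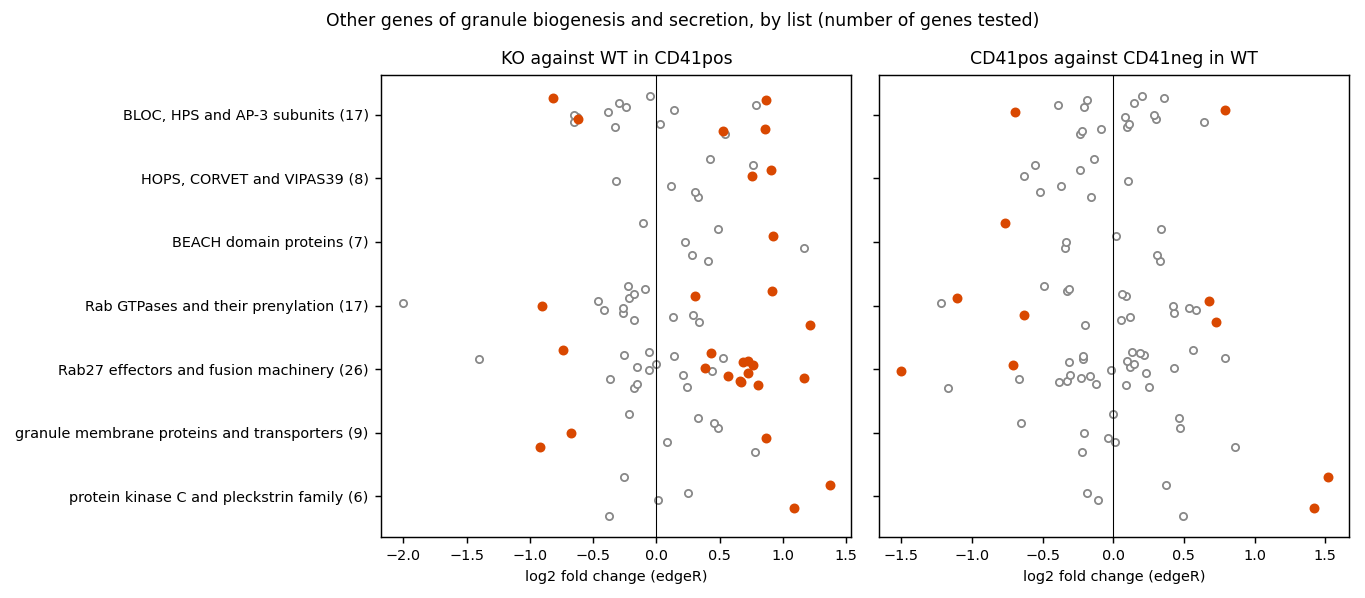
Log2 fold change of the 90 other granule genes tested, 1 point a gene by list, in KO against WT in CD41pos cells (left) and CD41pos against CD41neg in WT (right), with filled points for an adjusted p below 0.05. Filled points lie mostly to the right of 0 on the left (23 of 29) and on both sides on the right (5 of 11).

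By the likeness of their levels across the 12 libraries (Pearson's r of log2 CPM over 10206 genes of at least 10 CPM on average), the nearest genes to Rab27b were Itga2b, which encodes the sorted antigen (0.99), Kcnj5 (0.98) and Rab11a (0.98). Itga2b itself averaged 103 and 247 CPM in CD41neg WT and KO and 621 and 1118 CPM in CD41pos WT and KO, the same order of groups as Rab27b. Among the 3 nearest to Slc35d3 were Dtnbp1 (0.98) and Robo3 (0.97). All these points share the libraries, the gate and the genotype, so the coefficients describe the 4 groups more than variation within them.

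In sorted bulk RNA, fewer cells of a type and less RNA per cell cannot be told apart, and several marker lists moved with the same groups. The summed level of 14 megakaryocyte and platelet markers was 1558 to 1745 CPM in CD41pos WT, 317 to 376 in CD41neg WT, 2161 to 2679 in CD41pos KO and 507 to 599 in CD41neg KO, the order of groups seen for Rab27b and Slc35d3. Of the 14, 13, 9, 13 and 11 were at 1 CPM or more in every library of these groups, and none was at 0 throughout a group. With the gate 11 of the 14 were called higher in WT and 10 in KO, against 2.72% and 1.56% of all genes. With KO 3 were higher and 1 lower in CD41pos cells, against 9.79% and 7.27%. In CD41neg cells 2 were higher with KO, against 3.85%. The 14 include Itga2b, the gene of the sorted antigen, so its gate difference is no independent result. It averaged 621 CPM in CD41pos WT and 1118 CPM in CD41pos KO, a large part of these sums and of their rise with KO. Not all of the 14 moved alike with KO in CD41pos cells, where 11 had a change above 0. Pf4 went from a mean of 270 to 104 CPM, Gp1bb from 69.9 to 40.2 CPM and Selp from 89.5 to 82.0 CPM. The part of these markers in the results above was not tested.

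Rab27a, Rab27b and Lyst also serve granules of mast cells and lymphocytes, and Plek is expressed in monocytes and neutrophils, so those lists were read too. In CD41pos cells the summed level was 229 to 614 CPM in WT and 114 to 122 in KO for 6 mast cell and basophil markers, 231 to 306 and 78.6 to 137 for 10 T and NK cell markers, and 5000 to 6248 and 1799 to 4075 for 9 neutrophil markers. These 3 sums were lower in every CD41pos KO library than in every CD41pos WT library. Called lower in KO were 3 of 6, 2 of 10 and 3 of 9 of these markers, against 7.27% of all genes. Markers of a list did not all move alike. From CD41pos WT to KO the basophil genes Prss34 (mean 274 to 0.634 CPM) and Mcpt8 (93.9 to 0.572 CPM) fell. Cpa3 (40.7 to 84.2 CPM) and Ms4a2 (14.2 to 29.0 CPM) were higher in KO. In the T and NK cell list Nkg7 gave the largest part of the summed CPM (247 to 100 CPM), and Cd3e was at 0.610 and 0.605 CPM. A part of such a sum is a share of reads and does not rank genes by level. For 10 monocyte and macrophage markers the sums overlapped, at 457 to 598 in WT and 308 to 529 in KO. In CD41neg cells the sums in WT and KO were 99.8 to 513 and 50.4 to 106 (mast cell and basophil), 87.5 to 142 and 50.4 to 89.2 (T and NK cell), 1989 to 2951 and 461 to 1229 (neutrophil) and 225 to 353 and 130.1 to 386 CPM (monocyte and macrophage). Of 9 stromal and endothelial markers 5 were called lower in CD41pos and 7 in CD41neg KO cells, against 7.27% and 3.97% of all genes. They summed to 199 to 387 CPM in CD41pos WT, 206 to 878 in CD41neg WT, 39.9 to 60.3 in CD41pos KO and 27.7 to 37.2 in CD41neg KO. In the same order of groups the sums were 152 to 652, 345 to 3078, 61.4 to 107 and 99.9 to 202 CPM for 7 B and plasma cell markers and 294 to 884, 878 to 1355, 452 to 604 and 998 to 1141 CPM for 7 erythroid markers. No marker of these lists was at 0 throughout a group, and their part in the results was not tested.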

How the data were processed

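RNA of 12 sorted HSC libraries was made into SMART-Seq v4 cDNA libraries, per the labels' protocols. The authors deposited raw read counts per gene and TPM values, 1 column a library, and the submitters' processing notes name FastQC 0.11.7, cutadapt 1.9.1, STAR 2.6.1e, featureCounts 1.6.2 and mm10, without settings. The deposited TPM values are scaled by gene length and library, and per the file's values they are rounded to 1 decimal. Among gene names of the counts, 27 had been turned into dates, and these names were taken from the TPM table.

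Counts of 35869 genes were filtered by edgeR's filterByExpr, which left 19395, the 10 members among them. They were scaled by TMM and fitted with edgeR 4.0.16 (R 4.3.3) as 4 group means over all 12 libraries, so that the groups share 1 estimate of spread. The 5 comparisons used the two-sided quasi-likelihood test with Benjamini-Hochberg adjustment over all genes tested and a threshold of 0.05. SE is the absolute log2 fold change divided by the square root of F. The script was tested on simulated counts. Alternatives used DESeq2 1.42.0 and limma 3.58.1 (limma-trend on log2 of TPM + 1 or 0.1), other filters, other samples and blocks, and a Y-linked covariate that was chosen after seeing the data.

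All 10 members are named. Of the other granule genes, up to 4 a list with the smallest adjusted p in a comparison are named. Marker lists are given as totals, with a few single genes. Some genes that this rule names are not reported here. The 3 most similar genes are given for the 2 members with the smallest adjusted p. Members and lists were chosen with earlier results of these data known.

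Same-numbered KO libraries of the 2 gates deviated together (r of 0.46, 0.63 and 0.47 over 11386 genes), and their numbers come from the titles. A blocked alternative took them as pairs. The main fit held no block, so its KO gate values leave this pairing out. CD41pos KO 1 with CD41neg KO 3 and CD41pos KO 3 with CD41neg KO 1 also gave 0.29 and 0.27. Both KO 2 libraries differed from these in Xist. Same-numbered WT libraries gave 0.15 and -0.46 and were not read as pairs. The highest WT value was 0.57, for CD41pos WT 4 with CD41neg WT 2, numbered 5 and 6 in the labels. CD41pos WT 1 with CD41neg WT 4, numbered 1 and 2, gave 0.03. Ddx3y measured 0.0355 and 0 CPM in the libraries numbered 1 and 2, and 22.45 and 19.35 CPM in those numbered 5 and 6. It measured 11.2 and 38.9 CPM in those numbered 9 and 10. Whether neighbouring numbers share an animal was not tested. No fit paired WT libraries by these numbers. No replicate pair was identical.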

Additional observations from a re-analysis of the deposited data

How the results depend on the processing

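No call of the 10 genes changed direction under any alternative: of 396 values recomputed for the 18 calls, 344 still passed and 52 did not, and of the 32 uncalled results 7 values passed under another setting. For KO in CD41pos cells the 6 calls became 0 with the replicate number as a block (957 of all genes called), and leaving out 1 library gave 0 to 6 calls and 965 to 4076 genes. For KO in CD41neg cells the 4 calls became 2 with that block (458 genes), and leaving out 1 library gave 3 to 4 calls and 341 to 3856 genes. Replicate numbers do not pair KO with WT animals, so these blocked values say nothing of the size of an effect. For the gate in WT the label number as a block left 1 call (Rab27b) and 42 genes, but it was not shown to mark a shared animal (r of 0.15 and -0.46), so a call lost there is not read as a weaker effect. Leaving out 1 library there gave 4 to 5 calls and 442 to 1166 genes. For the gate in KO that block left 3 calls and 156 genes, and leaving out 1 library gave 3 to 4 calls and 196 to 1041 genes. For the interaction that block gave 1 gene, and leaving out 1 library gave 0 to 2 genes.

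DESeq2 called 5052, 3096, 2413, 1321 and 72 genes (KO in CD41pos, KO in CD41neg, gate in WT, gate in KO, interaction), against 3309, 1517, 1084, 541 and 0. Fitting only the groups compared gave 2154, 201 and 1505 genes for KO in CD41pos and the gate in WT and in KO. Without the 4 WT libraries the counts were 7639 for KO in CD41pos, 4811 and 1474 for the gate in WT and KO, and 3467 with 2 of the 10 genes for the interaction. On log2(TPM + 0.1) KO in CD41pos gave 2090 genes and the interaction 26, on log2(TPM + 1) the interaction gave 7, and without a filter it gave 2. The cause of these differences was not tested. The lowest of the 10 genes in reads was Slc35d3 in CD41neg WT, at 14 to 59 a library, and the effect of depth was not tested.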
